A study of Mus musculus with 10 samples.

Results

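The genes of bone morphogenetic protein (BMP) and transforming growth factor beta (TGF-beta) signalling were taken by gene symbol: BMP, GDF, TGF-beta and activin ligands, their receptors, the Smad proteins, the Smurf ubiquitin ligases and the secreted antagonists. This gave 58 genes of the 22180 tested, each read by 1 probe set (for Gdf5 the brighter of 2). Their RNA was compared between 3 kinds of sample of embryonic cortex from CD1 mice, collected at embryonic day 12 to day 13, on Affymetrix Mouse Gene 2.0 ST arrays. The 4E-T group (3 arrays, numbered 1 to 3) held RNA that came down in a 4E-T immunoprecipitation (Magna RIP kit). 4E-T is a protein that binds the cap-binding factor eIF4E and represses translation. The IgG group (3 arrays, numbered 2 to 4) held RNA that came down with control IgG, and the input group (4 arrays, numbered 1 to 4) held total RNA. No group carried a mutation or a drug treatment, the replicates are biological by the design text, and whether cortices were pooled is not stated. The study's title places the experiment in the repression of a neurogenic programme by 4E-T, and the arrays ask which RNAs the 4E-T precipitate holds in excess of the IgG precipitate and of total RNA.

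In this pathway a secreted dimeric ligand brings together type I and type II receptor kinases, which phosphorylate receptor-regulated Smads. Smad1, Smad5 and Smad9 carry the BMP signal, Smad2 and Smad3 carry the TGF-beta and activin signal, and both kinds join Smad4 to act on genes in the nucleus. Smad6, Smad7 and the Smurf ligases turn the signal down inside the cell, and Noggin, Chordin and Follistatin catch ligands outside it. In the developing forebrain BMPs from the dorsal midline pattern the cortex, and BMP and TGF-beta signals bear on precursor division and on the choice between neurons and glia.

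All values below are RMA log2 values, so a difference of 1 is a 2-fold change, and values of different genes are not set against each other because each comes from its own probe set. Array values are listed in the order of their numbers, so the first 4E-T value and the first input value belong to 4E-T 1 and input 1. These 2 arrays stood apart: the median over the 22180 genes was 4.20 on 4E-T 1 and 4.15 on input 1, against 4.82 to 4.94 on the other 8 arrays. They are called the lower set. The fit therefore held a term for group and a term for that set, and a gene was called at an adjusted p under 0.05 (limma, Benjamini-Hochberg over all 22180 genes). Errors of differences are standard errors of that fit (n = 3 for 4E-T, 3 for IgG and 4 for input). Leaving out 4E-T 1 or input 1 gives the same fit of 8 arrays, since the partner is then taken up by the set term. In bulk samples, fewer cells of a type and less RNA per cell cannot be told apart, and because RMA equalizes the arrays, all levels are relative to the other RNAs of the same array.

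RNAs of several BMP and TGF-beta genes, among them Smad7, Bmpr1b, Gdf11 and Nog, stood higher, relative to other RNAs, with 4E-T than with IgG, and a larger number stood higher than in input. Of the 58 genes, 10 passed as higher with 4E-T than with IgG and 0 as lower (17.2% higher), where 7.57% of all genes were called higher and 2.92% lower. At an unadjusted p under 0.05 the members counted 23 higher and 2 lower, where 15.7% of all genes were higher and 8.12% lower. In 4E-T over input, 22 were higher and 1 lower (37.9% and 1.72%), where the shares of all genes were 10.4% and 8.86%. In IgG over input, 7 were higher and 0 lower (12.1% higher), against 6.14% and 10.5% of all genes. At an unadjusted p under 0.05 that comparison had 9 higher and 3 lower (15.5% and 5.17%), where 12.4% and 15.7% of all genes were. The 58 genes had a median difference of 0.23 between 4E-T and IgG, 0.29 between 4E-T and input and 0.07 between IgG and input, beside 0.03, 0.04 and 0.03 over the whole table. With group as the only term, the medians were -0.03 for the 58 genes and -0.19 for all genes in 4E-T over IgG, and 0.23 and 0.20 in IgG over input.

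Brightness and the lower set both bore on these counts. A mean of at least 5 over the 10 arrays was reached by 30 of the 58 genes and 10393 of all genes. This mean included the 4E-T arrays, so a gene near 5 could pass through high 4E-T values. Tgfb3 (mean 5.15, called over IgG) and Smad6 (mean 5.14, called over input) lay close to 5. By the calls of the same fit, 10 of these 30 brighter genes were higher in 4E-T than in IgG, against 14.6% of all genes that bright, and 19 of 30 were higher in 4E-T than in input, against 20.3%. In the 8 arrays without the lower set, 8 were higher in 4E-T than in IgG (6.29% of all genes), 17 in 4E-T than in input (8.88%) and 5 in IgG than in input (5.68%). With group as the only term, 0 were called in 4E-T over IgG (0.708% of all genes higher) and 4 higher in 4E-T over input (2.56%): Smad7, Bmpr1b, Acvr2a and Acvr1b. The count for 4E-T over IgG was 3 without 4E-T 2, 3 without 4E-T 3 and 5 without IgG 3. That for 4E-T over input was 12 without 4E-T 2, 15 without 4E-T 3 and 15 without input 4. Higher calls among all genes fell in the same fits. They went from 1678 to 663, 684 and 1302 in 4E-T over IgG, and from 2309 to 1431, 1427 and 2043 in 4E-T over input. Inside the lower set, 4E-T 1 exceeded input 1 for 47 of the 58 genes (81.0%) and for 49.3% of all genes. It did so for all 17 genes that the other 8 arrays called higher in 4E-T than in input, and for 93.1% of the 1969 genes of the whole table called that way.

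**Figure D1:**
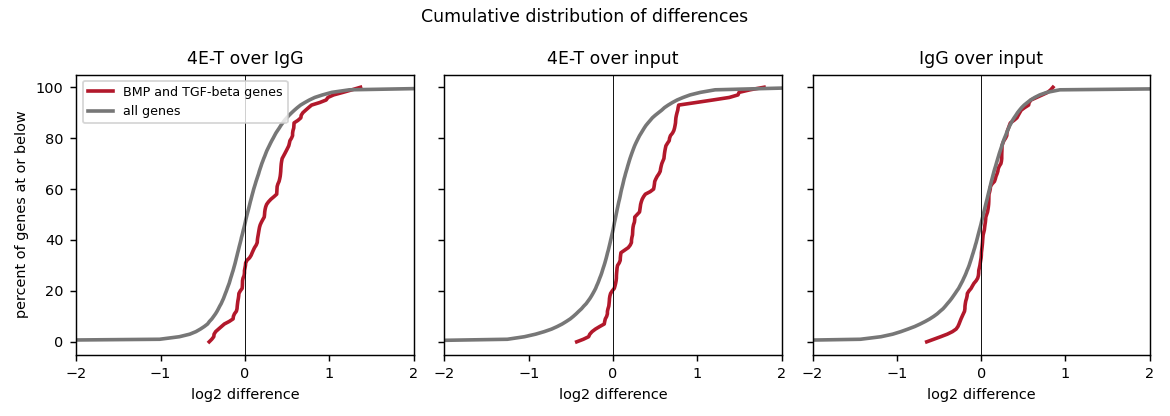
Cumulative share of genes (y axis, percent) at or below each log2 difference (x axis), for the 58 BMP and TGF-beta genes (red) and all 22180 genes (grey), in 4E-T over IgG (left), 4E-T over input (middle) and IgG over input (right). The red curve lies to the right of the grey one through the middle of both 4E-T panels, with medians of 0.23 and 0.29 against 0.03 and 0.04; the x axis stops at -2 and 2.

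**Figure D2:**
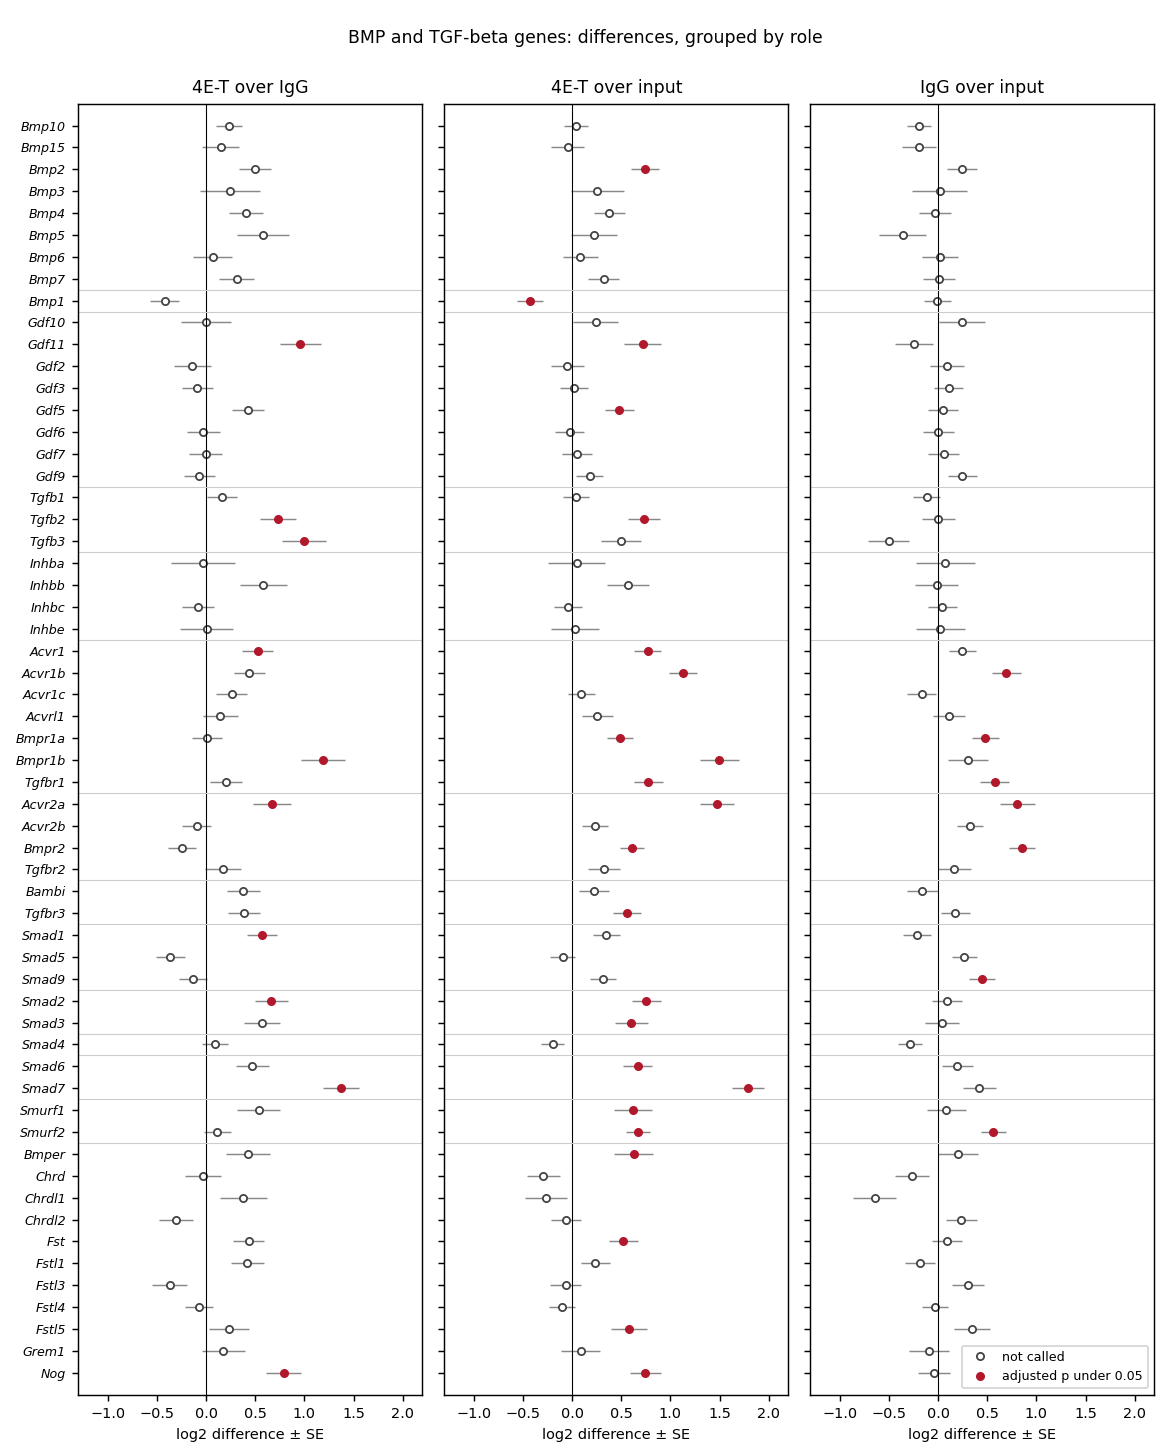
Log2 differences (x axis, bars are standard errors of the fit, n = 3 for 4E-T, 3 for IgG and 4 for input) of the 58 genes (rows, in role blocks from BMP ligands at the top to secreted antagonists at the bottom) in the 3 comparisons. Filled points passed an adjusted p under 0.05; Smad7 lies farthest right in both 4E-T panels, at 1.37 and 1.79, and Bmp1 is the filled point left of 0, at -0.43.

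Smad7, which encodes an inhibitory Smad that blocks type I receptors and recruits Smurf ligases to them, had the highest difference of the 58 genes in both 4E-T comparisons. Smad7 read 7.05, 7.92 and 7.84 on the 4E-T arrays, 6.68, 6.19 and 6.64 on the IgG arrays and 5.25, 5.98, 5.89 and 6.39 on the input arrays. On the 8 arrays of the common scale both 4E-T values lay above every IgG and input value, and within the lower set 4E-T 1 lay 1.79 above input 1. The difference was 1.37 ± 0.19 (2.59-fold, adjusted p = 0.00106) over IgG and 1.79 ± 0.16 (3.46-fold, adjusted p = 6.50e-05) over input, and both calls were kept with each array left out in turn (differences of 1.21 to 1.46 over IgG and 1.73 to 1.89 over input). IgG itself stood at 0.42 ± 0.17 over input, short of a call (adjusted p = 0.125) though Smad7 passed as higher without IgG 3 and after joint quantile normalization of the 10 arrays. With group alone Smad7 was at 1.09 ± 0.32 over IgG (adjusted p = 0.130) and 1.72 ± 0.30 over input (adjusted p = 0.00646).

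The other inhibitory Smad, Smad6, was called over input and not over IgG. On the arrays Smad6 had 5.49, 5.63 and 5.50 with 4E-T, against 5.14, 4.84 and 5.27 with IgG and 4.86, 5.14, 4.77 and 4.75 in input. Smad6, which acts mainly against BMP receptor signals, was higher in 4E-T than in input by 0.67 ± 0.15 (1.59-fold, adjusted p = 0.00817), a call lost on leaving out 4E-T 2 (adjusted p = 0.0527). Over IgG it stood at 0.47 ± 0.17 (adjusted p = 0.107). Smad7 minus Smad6 within an array was 1.56, 2.29 and 2.34 with 4E-T, against 1.54, 1.35 and 1.38 with IgG, which did not overlap but met closely (mean difference 0.64). In input it was 0.40, 0.85, 1.13 and 1.64, with an overlap.

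Of the 5 receptor-regulated Smads, 2 were higher in 4E-T than in IgG (Smad1 and Smad2) and 2 higher than in input (Smad2 and Smad3), with 0 lower in either. The shares of all genes were 7.57% higher and 2.92% lower over IgG, and 10.4% and 8.86% over input. The 4E-T arrays gave 8.62, 9.18 and 9.22 for Smad2, the IgG arrays 8.77, 8.45 and 8.31 and the input arrays 7.97, 8.58, 8.43 and 8.20. Smad2 was higher by 0.66 ± 0.17 (1.58-fold, adjusted p = 0.0273) over IgG, a call lost on leaving out any of 4E-T 2 and 3, and IgG 3 and 4 (adjusted p from 0.0691 to 0.130), and by 0.75 ± 0.15 (1.69-fold, adjusted p = 0.00383) over input, a call kept with each array left out. For Smad3 the values were 6.57, 6.80 and 6.53 with 4E-T, 6.17, 5.95 and 5.83 with IgG and 6.43, 5.84, 6.02 and 5.75 in input. Its 4E-T values lay above the IgG and input values of the 8 arrays, and Smad3 was higher over input by 0.60 ± 0.16 (1.52-fold, adjusted p = 0.0222), a call lost on leaving out any of 4E-T 2 and 3, and input 2 and 4 (adjusted p from 0.0565 to 0.155). Over IgG Smad3 stood at 0.57 ± 0.19 (adjusted p = 0.0763), and it was called there in the 8 arrays (adjusted p = 0.0360) and when only genes with a mean of at least 5 were fitted.

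Among the BMP-side Smads the pair Smad1 and Smad5 stood on opposite sides of 0. Values of Smad1 were 7.53, 7.61 and 7.68 in 4E-T, 7.12, 7.03 and 7.25 in IgG and 6.97, 7.18, 7.46 and 7.52 in input. Smad5 was measured at 7.49, 8.15 and 8.09 with 4E-T, at 8.54, 8.37 and 8.62 with IgG and at 7.47, 8.40, 8.24 and 8.15 in input. Smad1 was higher over IgG by 0.57 ± 0.15 (1.48-fold, adjusted p = 0.0372), a call lost on leaving out any of 4E-T 1, 2 and 3, IgG 2 and 3, and input 1 and 3 (adjusted p from 0.0583 to 0.131), and stood at 0.35 ± 0.14 over input (adjusted p = 0.107), where it was called when only genes with a mean of at least 5 were fitted. Smad5 stood at -0.36 ± 0.14 over IgG and -0.10 ± 0.13 over input (adjusted p = 0.144 and 0.729), and was called lower over IgG only after joint quantile normalization of the 10 arrays. Within an array, Smad1 minus Smad5 was 0.04, -0.54 and -0.41 with 4E-T, against -1.42, -1.34 and -1.38 with IgG, which did not overlap (mean difference 1.08). That within-array difference was -0.50, -1.23, -0.78 and -0.63 in input, and overlapped with 4E-T.

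Smad9 was the gene called in IgG over input but not in 4E-T over input, at 0.45 ± 0.13 (1.36-fold, adjusted p = 0.0378), a call lost in each of the 10 fits that left out 1 array (adjusted p from 0.0532 to 0.103). It stood at 0.31 ± 0.13 in 4E-T over input (adjusted p = 0.122). Smad4 read 8.17, 8.61 and 8.52 on the 4E-T arrays, 8.52, 8.36 and 8.50 on the IgG arrays and 8.41, 8.78, 8.71 and 8.73 on the input arrays. Smad4, the partner shared by all receptor-regulated Smads, stood at 0.09 ± 0.13 over IgG (95% interval -0.20 to 0.38) and -0.20 ± 0.12 over input (-0.45 to 0.06), called in neither.

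**Figure D3:**
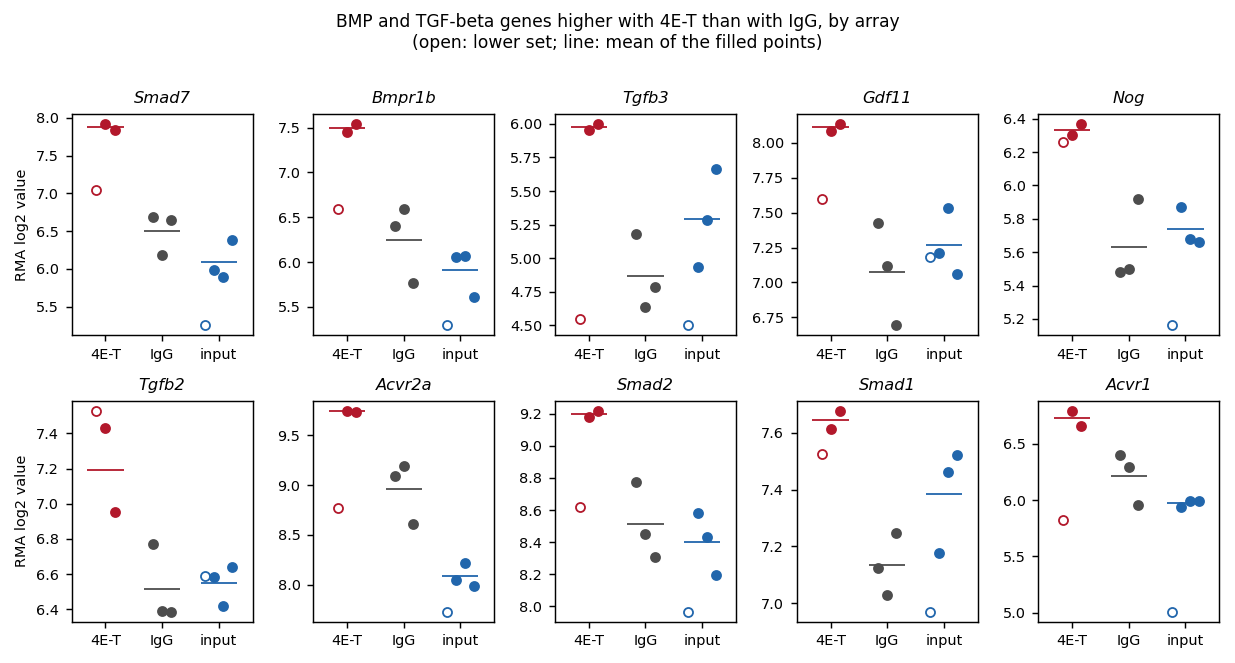
RMA log2 value (y axis, a separate scale for each gene) on every array for the 10 genes called higher in 4E-T than in IgG, with 4E-T, IgG and input from left to right. Open points are the lower set (4E-T 1 and input 1), filled points the other 8 arrays, and lines the mean of the filled points. In each panel both filled 4E-T points lie above all 3 IgG points. The genes were picked by their call on these arrays, which favours that order.

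Type I receptors, the kinases that phosphorylate Smads, were higher in 4E-T than in input for 5 of 7 genes, with 0 lower. Bmpr1b and Acvr1 were also higher than in IgG. Of all genes, 10.4% were higher over input and 7.57% over IgG. Bmpr1b, a BMP receptor, had the highest difference of the type I receptors. On the arrays Bmpr1b had 6.59, 7.45 and 7.54 with 4E-T, against 6.40, 6.59 and 5.77 with IgG and 5.30, 6.06, 6.07 and 5.61 in input. All 4E-T values of the common scale exceeded all IgG and input values, and 4E-T 1 exceeded input 1 by 1.29. Bmpr1b was higher by 1.19 ± 0.22 (2.28-fold, adjusted p = 0.00652) over IgG and 1.50 ± 0.20 (2.82-fold, adjusted p = 0.000360) over input, and both calls were kept with each array left out.

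For its close relative Bmpr1a, 4E-T and IgG lay at the same level within their error. The 4E-T arrays gave 8.46, 9.26 and 9.06 for Bmpr1a, the IgG arrays 9.31, 9.20 and 8.99 and the input arrays 7.89, 8.73, 8.80 and 8.57. The 4E-T and IgG values overlapped, and the difference was 0.01 ± 0.15 (95% interval -0.32 to 0.34). Bmpr1a was higher than in input in both precipitates, by 0.49 ± 0.13 (1.40-fold, adjusted p = 0.0219) with 4E-T and 0.48 ± 0.14 (1.39-fold, adjusted p = 0.0332) with IgG. The 4E-T call was lost on leaving out any of 4E-T 1 and 2, and input 1 and 4 (adjusted p from 0.0546 to 0.117) and the IgG call on leaving out any of 4E-T 1 and 3, IgG 2 and 3, and input 1, 2, 3 and 4 (adjusted p from 0.0513 to 0.0952). Bmpr1b minus Bmpr1a within an array was -1.87, -1.81 and -1.52 with 4E-T, against -2.91, -2.61 and -3.23 with IgG and -2.60, -2.67, -2.73 and -2.96 in input. The 4E-T values overlapped with neither (mean differences 1.18 and 1.01). This pair, Smad1 with Smad5, Smad7 with Smad6 and Tgfb3 with Tgfb1 were picked after their values were seen, so these 4 sets of within-array values are a description with no test, and they take no account of the lower set.

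For Acvr1 the values were 5.82, 6.79 and 6.66 with 4E-T, 6.40, 6.29 and 5.96 with IgG and 5.01, 5.94, 5.99 and 5.99 in input. Acvr1, a type I receptor for BMPs and activins, was higher by 0.52 ± 0.15 (1.44-fold, adjusted p = 0.0498) over IgG, a call just inside the threshold and lost in 9 of the 10 fits that left out 1 array (all but that without IgG 2, adjusted p from 0.0660 to 0.201) and with the replicate block (adjusted p = 0.0805). Over input Acvr1 was higher by 0.77 ± 0.14 (1.71-fold, adjusted p = 0.00194), kept with each array left out. Values of Acvr1b were 7.50, 8.16 and 8.50 in 4E-T, 7.82, 7.81 and 7.93 in IgG and 6.50, 6.99, 7.06 and 7.36 in input. Tgfbr1 was measured at 7.91, 8.40 and 8.58 with 4E-T, at 8.49, 8.41 and 8.10 with IgG and at 6.95, 7.63, 7.93 and 7.81 in input. Acvr1b, the activin type I receptor, was higher over input by 1.13 ± 0.14 (2.19-fold, adjusted p = 0.000272) with 4E-T and 0.69 ± 0.15 (1.61-fold, adjusted p = 0.00705) with IgG, both kept with each array left out. Tgfbr1, the TGF-beta type I receptor, was higher by 0.78 ± 0.15 (1.71-fold, adjusted p = 0.00274) with 4E-T and 0.57 ± 0.15 (1.49-fold, adjusted p = 0.0209) with IgG, the IgG call lost on leaving out any of IgG 2 and 3, and input 2 (adjusted p from 0.0654 to 0.0749). Between the precipitates they stood at 0.44 ± 0.16 and 0.20 ± 0.16 (adjusted p = 0.111 and 0.527). Acvr1c and the endothelial receptor gene Acvrl1 were dim, with means over the 10 arrays of 3.83 and 3.94, and were called in no comparison.

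Type II receptors split as well, with Acvr2a and Bmpr2 higher in both precipitates than in input and 0 of the 4 lower. The shares of all genes were 10.4% higher and 8.86% lower in 4E-T over input, and 6.14% and 10.5% in IgG over input. Acvr2a read 8.77, 9.75 and 9.73 on the 4E-T arrays, 9.09, 9.19 and 8.61 on the IgG arrays and 7.73, 8.05, 8.22 and 7.99 on the input arrays. Acvr2a, a receptor for activins and several BMPs, was higher by 1.48 ± 0.17 (2.78-fold, adjusted p = 0.000195) with 4E-T and 0.81 ± 0.18 (1.75-fold, adjusted p = 0.00909) with IgG, both kept with each array left out. It was the gene called in all 3 comparisons, at 0.67 ± 0.20 (1.59-fold, adjusted p = 0.0494) in 4E-T over IgG. That call was lost on leaving out any of 4E-T 2 and 3, IgG 2 and 4, and input 2, 3 and 4 (adjusted p from 0.0524 to 0.216), and with the replicate block (adjusted p = 0.0648).

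On the arrays Bmpr2 had 9.95, 10.47 and 10.48 with 4E-T, against 10.64, 10.66 and 10.67 with IgG and 9.59, 9.67, 9.75 and 9.86 in input. Bmpr2, the BMP type II receptor, was higher over input by 0.61 ± 0.12 (1.53-fold, adjusted p = 0.00464) with 4E-T and 0.85 ± 0.13 (1.80-fold, adjusted p = 0.000921) with IgG, both kept with each array left out. Both 4E-T values of the common scale lay below the 3 IgG values, but the difference of -0.24 ± 0.14 was not called (adjusted p = 0.342). Acvr2b and Tgfbr2 were called in no comparison, at -0.09 ± 0.15 and 0.17 ± 0.18 over IgG and 0.23 ± 0.13 and 0.33 ± 0.16 over input.

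**Figure D4:**
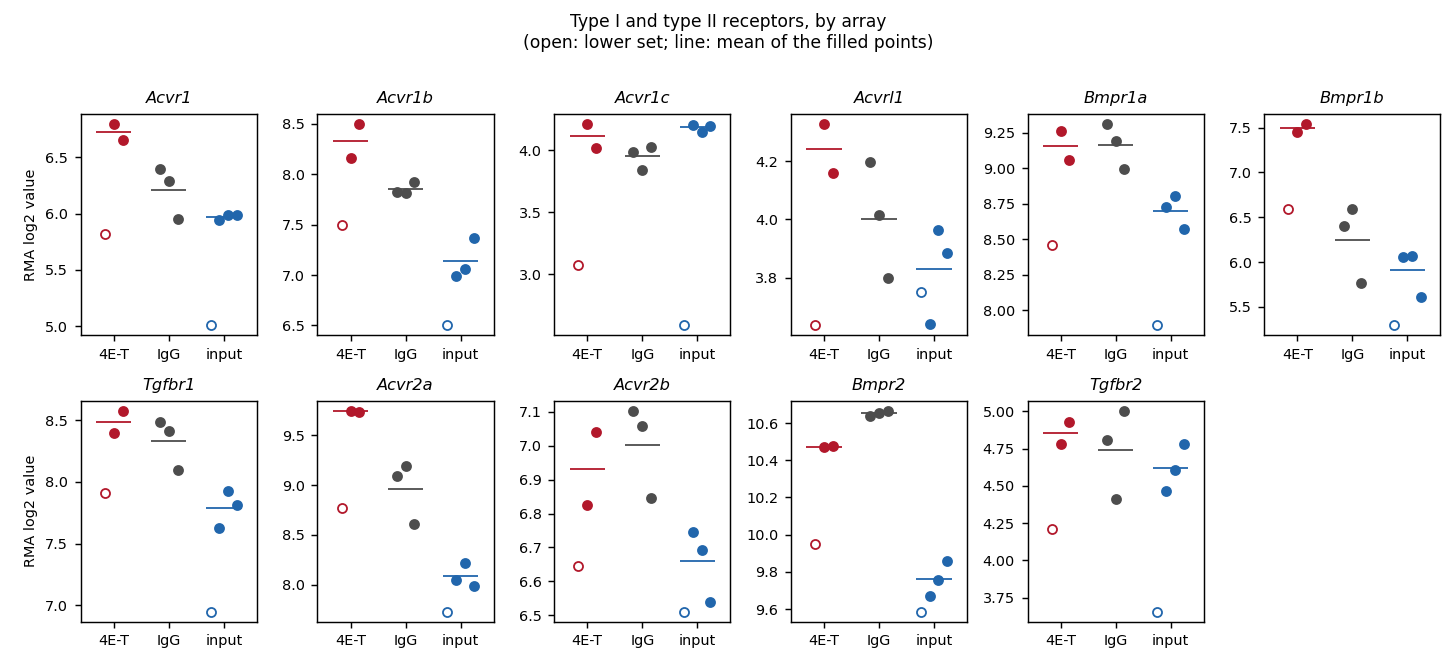
RMA log2 value (y axis, a separate scale for each gene) on every array for the 7 type I and 4 type II receptor genes, with 4E-T, IgG and input from left to right. Open points are the lower set, filled points the other 8 arrays, and lines the mean of the filled points; Acvr1b, Acvr2a and Bmpr2 lie higher in both precipitates than in input, while Bmpr1b is highest in 4E-T, at 7.45 and 7.54 against 5.77 to 6.59 in IgG.

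Tgfbr3 (betaglycan), a co-receptor that presents TGF-beta ligands, and Bambi, a receptor-like protein without a kinase that dampens signalling, were not called between the precipitates (both at 0.38 in 4E-T over IgG). The 4E-T arrays gave 3.11, 4.49 and 4.22 for Tgfbr3, the IgG arrays 3.75, 4.05 and 4.13 and the input arrays 2.54, 3.63, 3.88 and 3.90. For Bambi the values were 6.02, 6.33 and 5.94 with 4E-T, 5.55, 5.80 and 6.01 with IgG and 5.68, 5.97, 5.88 and 6.07 in input. Tgfbr3 was higher over input by 0.56 ± 0.14 (1.47-fold, adjusted p = 0.0166), a call lost on leaving out any of 4E-T 1 and 2, and input 1 and 2 (adjusted p from 0.0512 to 0.108). Bambi stood at 0.22 ± 0.15 over input and 0.38 ± 0.17 over IgG (adjusted p = 0.416 and 0.202).

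The Smurf genes encode ubiquitin ligases that mark receptors and Smads for degradation. Both were higher in 4E-T than in input, where 10.4% of all genes were. Values of Smurf1 were 5.97, 7.31 and 7.21 in 4E-T, 6.17, 6.84 and 6.78 in IgG and 5.86, 6.31, 6.49 and 6.51 in input. Smurf2 was measured at 8.35, 9.28 and 9.31 with 4E-T, at 9.11, 9.11 and 9.15 with IgG and at 7.90, 8.54, 8.45 and 8.58 in input. Smurf2 was higher by 0.67 ± 0.12 (1.60-fold, adjusted p = 0.00222) with 4E-T and 0.56 ± 0.13 (1.48-fold, adjusted p = 0.00925) with IgG, both kept with each array left out, and stood at 0.11 ± 0.14 between the precipitates (95% interval -0.19 to 0.41). Smurf1 was higher over input with 4E-T by 0.62 ± 0.19 (1.53-fold, adjusted p = 0.0412), a call lost on leaving out any of 4E-T 2 and 3, and input 2, 3 and 4 (adjusted p from 0.0757 to 0.204). It stood at 0.08 ± 0.20 in IgG over input and 0.53 ± 0.22 in 4E-T over IgG, not called.

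Of the TGF-beta ligands, Tgfb2 and Tgfb3 were higher in 4E-T than in IgG and Tgfb1 was not called. Tgfb2 read 7.53, 7.43 and 6.95 on the 4E-T arrays, 6.77, 6.39 and 6.39 on the IgG arrays and 6.59, 6.59, 6.42 and 6.64 on the input arrays. Tgfb2 was higher by 0.73 ± 0.18 (1.66-fold, adjusted p = 0.0252) over IgG, a call lost on leaving out any of 4E-T 1 and 2, IgG 3 and 4, and input 1 (adjusted p from 0.0599 to 0.157), and by 0.73 ± 0.16 (1.66-fold, adjusted p = 0.00712) over input, lost on leaving out 4E-T 2 (adjusted p = 0.0573). Its value on 4E-T 1 was the highest of the 4E-T arrays, and that on input 1 lay among the other inputs. On the arrays Tgfb3 had 4.55, 5.95 and 5.997 with 4E-T, against 5.18, 4.64 and 4.78 with IgG and 4.501, 4.93, 5.28 and 5.66 in input. Tgfb3 was higher over IgG by 1.00 ± 0.23 (1.99-fold, adjusted p = 0.0168), a call lost on leaving out any of 4E-T 2 and 3, and IgG 3 (adjusted p from 0.0535 to 0.103). The call was also lost after median centring and after joint quantile normalization of the 10 arrays. Over input Tgfb3 stood at 0.50 ± 0.20 with 4E-T and -0.50 ± 0.21 with IgG (adjusted p = 0.121 and 0.137), the second called lower without input 2.

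The 4E-T arrays gave 4.34, 4.94 and 5.21 for Tgfb1, the IgG arrays 4.99, 5.002 and 4.98 and the input arrays 4.01, 5.16, 5.24 and 5.06. Tgfb1 stood at 0.16 ± 0.15 over IgG and 0.04 ± 0.13 over input (95% intervals -0.17 to 0.49 and -0.25 to 0.33). Tgfb3 minus Tgfb1 within an array was 0.21, 1.01 and 0.79 with 4E-T, against 0.20, -0.36 and -0.19 with IgG and 0.49, -0.23, 0.05 and 0.60 in input.

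Among 8 GDF ligands, Gdf11 was the gene higher in 4E-T than in IgG, and Gdf11 and Gdf5 were higher than in input, with 0 lower in either. These are 12.5% and 25% of the 8 genes, where 7.57% and 10.4% of all genes were higher. Gdf11 encodes a ligand that limits neurogenesis in mouse olfactory epithelium. For Gdf11 the values were 7.60, 8.09 and 8.13 with 4E-T, 7.43, 7.11 and 6.69 with IgG and 7.18, 7.21, 7.53 and 7.06 in input. All 4E-T values, that of the lower set included, lay above all IgG and input values. Gdf11 was higher by 0.96 ± 0.21 (1.94-fold, adjusted p = 0.0143) over IgG, lost on leaving out any of 4E-T 2 and 3 (adjusted p from 0.0808 to 0.0877), and by 0.72 ± 0.19 (1.64-fold, adjusted p = 0.0182) over input, lost on leaving out any of 4E-T 2 and 3, and input 2 (adjusted p from 0.0505 to 0.0958).

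Values of Gdf5 were 4.30, 4.99 and 4.87 in 4E-T, 4.58, 4.30 and 4.66 in IgG and 3.77, 4.69, 4.25 and 4.47 in input. Gdf5, known for its part in joint formation, was higher over input by 0.48 ± 0.15 (1.39-fold, adjusted p = 0.0376), a call lost on leaving out any of 4E-T 1, 2 and 3, and input 1, 3 and 4 (adjusted p from 0.0662 to 0.149) and with the mean of its 2 probe sets. Gdf2 was measured at 3.49, 4.59 and 4.56 with 4E-T, at 4.44, 5.17 and 4.59 with IgG and at 3.49, 4.70, 4.55 and 4.69 in input. Gdf2 (also BMP9, a ligand of Acvrl1) had the lowest difference over IgG of the GDF genes, at -0.14 ± 0.19. The other GDF genes (Gdf3, Gdf6, Gdf7, Gdf9 and Gdf10) lay between -0.09 and -0.00473 over IgG and between -0.03 and 0.24 over input, and were not called.

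The 8 BMP ligand genes lay between 0.07 and 0.58 over IgG, and 0 were called there by limma (3 at an unadjusted p under 0.05, all higher, where 15.7% of all genes were). The one called over input was Bmp2, a ligand close to Bmp4 (12.5% of the 8 genes, where 10.4% of all genes were higher). Bmp2 read 4.34, 4.59 and 4.71 on the 4E-T arrays, 4.35, 4.22 and 4.06 on the IgG arrays and 3.36, 4.18, 3.79 and 4.04 on the input arrays. Bmp2 was higher over input by 0.74 ± 0.14 (1.67-fold, adjusted p = 0.00349), kept with each array left out, and stood at 0.50 ± 0.16 over IgG (adjusted p = 0.0763). On the arrays Bmp5 had 4.04, 5.19 and 4.87 with 4E-T, against 4.87, 4.53 and 3.77 with IgG and 4.06, 4.49, 4.67 and 4.96 in input. The 4E-T arrays gave 2.76, 3.12 and 2.93 for Bmp6, the IgG arrays 2.94, 2.76 and 3.40 and the input arrays 2.38, 2.96, 2.92 and 3.31. Bmp5 and Bmp6 marked the ends of the group over IgG, at 0.58 ± 0.26 and 0.07 ± 0.20. Bmp4 and Bmp7, which the dorsal midline of the forebrain expresses, stood at 0.41 ± 0.18 and 0.31 ± 0.18 over IgG (adjusted p = 0.180 and 0.331), and at 0.38 ± 0.16 and 0.32 ± 0.16 over input. Bmp3, Bmp10 and Bmp15 were not called either, at 0.24, 0.23 and 0.15 over IgG.

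Bmp1 shares the name but encodes a metalloprotease that cleaves procollagen and Chordin, and it was the gene lower in 4E-T than in input. For Bmp1 the values were 5.38, 5.22 and 5.50 with 4E-T, 5.72, 5.89 and 5.90 with IgG and 5.59, 5.92, 5.93 and 5.79 in input. All 4E-T values lay below all IgG and input values. The difference over input was -0.43 ± 0.13 (adjusted p = 0.0408), a call lost on leaving out any of 4E-T 2 and 3, and input 2, 3 and 4 (adjusted p from 0.0601 to 0.246) and with the replicate block (adjusted p = 0.0517). Over IgG Bmp1 stood at -0.42 ± 0.15 (adjusted p = 0.102), and it was called lower when only genes with a mean of at least 5 were fitted.

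The activin and inhibin beta subunit genes were not called in any comparison. Values of Inhbb were 5.06, 6.30 and 6.16 in 4E-T, 5.50, 5.15 and 6.10 in IgG and 4.78, 5.46, 5.37 and 5.82 in input. Inhbb, the beta B subunit, was at 0.58 ± 0.24 over IgG and 0.57 ± 0.21 over input (adjusted p = 0.157 and 0.0877), and with the replicate block it was called higher in both (adjusted p = 0.0303 and 0.0127). It also passed over IgG without IgG 4, and over input without IgG 3, without IgG 4 and when only genes with a mean of at least 5 were fitted. Inhbc was measured at 3.51, 3.46 and 3.44 with 4E-T, at 3.45, 3.35 and 3.85 with IgG and at 3.49, 3.53, 3.60 and 3.42 in input. Inhbc, at -0.08 ± 0.16, was lowest over IgG, and Inhba and Inhbe stood at -0.03 ± 0.33 and 0.01 ± 0.27 there.

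Of the 11 secreted antagonists and binding proteins, Nog was higher in 4E-T than in IgG, and Nog, Bmper, Fst and Fstl5 were higher than in input, with 0 lower in either. That is 9.09% and 36.4% of the 11 genes, where 7.57% and 10.4% of all genes were higher. Nog encodes Noggin, which binds BMPs and keeps them from their receptors. Nog read 6.26, 6.30 and 6.37 on the 4E-T arrays, 5.48, 5.50 and 5.92 on the IgG arrays and 5.16, 5.87, 5.68 and 5.66 on the input arrays. Every 4E-T value lay above every IgG and input value. Nog was higher by 0.79 ± 0.18 (1.73-fold, adjusted p = 0.0155) over IgG, lost on leaving out 4E-T 3 (adjusted p = 0.0645), and by 0.74 ± 0.16 (1.68-fold, adjusted p = 0.00552) over input, kept with each array left out. In IgG over input it stood at -0.04 ± 0.16 (95% interval -0.40 to 0.31).

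On the arrays Fst had 5.81, 5.93 and 6.22 with 4E-T, against 5.71, 5.84 and 5.59 with IgG and 5.02, 5.71, 5.78 and 5.51 in input. Fst encodes Follistatin, which binds activins, and was higher over input by 0.52 ± 0.14 (1.44-fold, adjusted p = 0.0234), a call lost on leaving out any of 4E-T 1 and 3, and input 1 and 4 (adjusted p from 0.0566 to 0.131). The 4E-T arrays gave 5.54, 6.72 and 6.92 for Bmper, the IgG arrays 6.18, 6.77 and 6.07 and the input arrays 5.13, 6.14, 6.39 and 5.77. Bmper, a BMP-binding endothelial regulator, was higher over input by 0.63 ± 0.20 (1.55-fold, adjusted p = 0.0436), lost on leaving out any of 4E-T 1, 2 and 3, and input 1, 2 and 4 (adjusted p from 0.0769 to 0.199). For Fstl5 the values were 6.20, 7.45 and 7.32 with 4E-T, 7.19, 7.15 and 6.68 with IgG and 6.19, 6.56, 6.58 and 6.56 in input. Fstl5 was higher over input by 0.58 ± 0.18 (1.49-fold, adjusted p = 0.0415), lost on leaving out any of 4E-T 2 and 3, and input 2, 3 and 4 (adjusted p from 0.0891 to 0.223) and with the replicate block (adjusted p = 0.0713).

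Values of Fstl3 were 3.68, 4.24 and 4.28 in 4E-T, 4.505, 4.49 and 4.98 in IgG and 3.63, 4.36, 4.18 and 4.58 in input. Fstl3, another activin-binding protein, had the lowest difference over IgG of the antagonists, at -0.37 ± 0.18 (adjusted p = 0.233). Fstl1 stood at 0.42 ± 0.17 over IgG and was called there only with the replicate block (adjusted p = 0.0493). Chrd, which encodes Chordin, and its relatives Chrdl1 and Chrdl2 stood at -0.03 ± 0.19, 0.38 ± 0.24 and -0.30 ± 0.17 over IgG. In IgG over input Chrdl1 stood at -0.65 ± 0.22 (adjusted p = 0.0691), and was called lower with the replicate block (-0.62 ± 0.14, adjusted p = 0.0112), without IgG 2 and without input 4. Grem1, a BMP antagonist of the limb, and Fstl4 stood at 0.18 ± 0.22 and -0.07 ± 0.14 over IgG and were not called.

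Side by side, the comparisons sorted the called genes into sets, which share arrays and so are given as counts alone. The matching shares of all genes were not counted, so the sets do not set these genes apart from the whole table. Both 4E-T comparisons called 8 genes (Gdf11, Tgfb2, Acvr1, Bmpr1b, Acvr2a, Smad2, Smad7 and Nog), of which Acvr2a was also called in IgG over input. In both precipitates 5 genes (Acvr1b, Bmpr1a, Tgfbr1, Bmpr2 and Smurf2) were higher than in input, with no call between the precipitates. A further 9 were called in 4E-T over input alone on the higher side (Bmp2, Gdf5, Tgfbr3, Smad3, Smad6, Smurf1, Bmper, Fst and Fstl5), and 2 in 4E-T over IgG alone (Tgfb3 and Smad1). No call was made in any comparison for 32 of the 58 genes. By role, the 11 receptor genes counted 7 higher in 4E-T than in input and 5 higher in IgG than in input. Of all genes, 10.4% and 6.14% were higher in these comparisons.

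Other genes of the pathway were taken as a list of 78 measured genes outside the symbol rule. These also had calls on the higher side alone in both 4E-T comparisons. In 4E-T over IgG 12 were higher and 0 lower, where 7.57% and 2.92% of all genes were. In 4E-T over input 23 were higher and 0 lower (10.4% and 8.86% of all genes). In IgG over input 10 were higher and 5 lower (6.14% and 10.5% of all genes). The list median was 0.14, 0.29 and 0.13. Over IgG the highest were Tab1, a partner of the TGF-beta-activated kinase (1.31 ± 0.24), Cited2, a transcriptional cofactor (1.24 ± 0.22), Tob1, an antiproliferative protein that binds Smads and deadenylases (1.22 ± 0.17), and Id4, an inhibitor of bHLH factors (1.09 ± 0.27). Over input they were Tob1 (1.46 ± 0.15), Tab1 (1.21 ± 0.21), Lemd3, an inner nuclear membrane protein that binds Smads (1.21 ± 0.12), and Thbs1, which activates latent TGF-beta (1.04 ± 0.24). Rnf111, the ubiquitin ligase Arkadia that acts on Smad7, was higher in both, by 0.72 ± 0.16 over IgG and 1.01 ± 0.14 over input. Among BMP target genes, Id4, Atoh8 (1.00 ± 0.16) and Msx2 (0.78 ± 0.20) were higher over IgG. Id1, Id2 and Id3 were not called there, at 0.44 ± 0.22, 0.16 ± 0.22 and -0.10 ± 0.25. Msx2 was dim, with a mean of 3.25. In 4E-T over input Atoh8 was higher (0.50 ± 0.14), and Id4, Msx2 and Cited2 were not called (0.73 ± 0.24, 0.31 ± 0.18 and 0.38 ± 0.19). In IgG over input, Cited2, Id1 and Atoh8 were lower (-0.86 ± 0.20, -0.71 ± 0.20 and -0.50 ± 0.15). Skil, a target and inhibitor of TGF-beta signals, was higher than input in both precipitates, by 0.90 ± 0.13 with 4E-T and 1.04 ± 0.14 with IgG, and stood at -0.14 ± 0.15 between them. Pmepa1, another target, was higher over input with 4E-T by 0.69 ± 0.19 and stood at 0.36 ± 0.20 in IgG over input, not called.

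Markers of cell types moved between the groups too. Of all genes, 7.57% were higher and 2.92% lower in 4E-T over IgG, and 10.4% and 8.86% in 4E-T over input. In IgG over input these shares were 6.14% and 10.5%. Of 7 cortical precursor markers 4 were higher in 4E-T than in IgG and 3 higher than in input, with 0 lower in either. Sox2 had the highest difference in both (1.06 ± 0.17 and 1.21 ± 0.15). Fabp7 lay below 0 in both, at -0.16 ± 0.14 and -0.34 ± 0.12, not called. Emx1, called higher over IgG, stood at -0.18 ± 0.16 over input and was lower in IgG than in input (-0.79 ± 0.16). The mean level of the 7 markers on the 8 arrays was 8.91 to 9.09 in 4E-T, 8.49 to 8.51 in IgG and 8.53 to 8.74 in input. Of 6 neuron markers 0 were higher and 1 lower over IgG (Dcx, -1.11 ± 0.21), 2 were higher in 4E-T than in input (Tbr1, 0.62 ± 0.15, and Bcl11b, 0.64 ± 0.18), and 3 were higher and 1 lower in IgG than in input, with mean levels of 9.61 to 9.68 in 4E-T, 9.52 to 10.02 in IgG and 9.25 to 9.70 in input. Of 10 markers of the cortical hem and choroid plexus, sources of BMPs, 1 was higher over IgG (Otx2, 1.14 ± 0.22) and 3 over input, with levels of 4.56 to 4.74 in 4E-T, 4.25 to 4.62 in IgG and 4.33 to 4.498 in input. Of 8 ventral forebrain markers 2 were higher over IgG and 3 over input, with levels of 5.39 to 5.55 in 4E-T, 5.003 to 5.36 in IgG and 5.08 to 5.44 in input. Of 11 markers of meninges and mesenchyme 2 were higher over IgG (Foxc1, 1.42 ± 0.15, and Foxd1) and 1 over input, with levels of 4.93 to 5.04 in 4E-T, 4.60 to 4.95 in IgG and 4.31 to 4.99 in input. Of 9 endothelial markers 2 were higher over IgG (Kdr, 1.48 ± 0.22, and Emcn, 0.78 ± 0.18), 1 was higher and 1 lower over input, and 4 were lower in IgG than in input, with levels of 4.93 to 5.13 in 4E-T, 4.37 to 4.66 in IgG and 4.91 to 4.99 in input. Of 9 microglia and macrophage markers 0 were called over IgG by limma, and 1 was higher and 3 lower over input, with levels of 4.64 to 4.75 in 4E-T, 4.62 to 4.92 in IgG and 4.95 to 5.21 in input. Of 5 erythroid markers 1 was higher over IgG (Tspan33) and 1 lower over input, with levels of 7.11 to 7.13 in 4E-T, 6.31 to 7.16 in IgG and 6.80 to 7.63 in input. RMA gives no value of 0, the table holds no detection calls, and the part of these cell types in the results above was not tested. Over the 10 arrays the precursor genes Emx1, Emx2, Sox2, Nes and Pax6 had means from 6.52 to 9.89. The neuron genes Tubb3, Tbr1 and Neurod6 had means from 9.01 to 11.04. Dlx5 and Dlx2 had the highest means of the ventral list, 7.15 and 6.24. The rest of that list lay from 3.90 (Nkx2-1) to 5.79 (Gad2). Prrx1 had the highest mean of the mesenchyme list, 7.15, and the rest lay from 3.13 (Pdgfra) to 5.34 (Pdgfrb). Each gene was read by its own probe set, so these means do not test the cortex label.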

How the data were processed

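RNA of 3 4E-T precipitates, 3 IgG precipitates and 4 inputs was read on single-channel arrays, and the values were deposited as RMA log2 values per probe set, made by RMA in Expression Console (Affymetrix), per the submitters' processing notes. The background, build and grouping of arrays in that run are not given in the sources used here. Of 41345 probe sets, 23521 carried 1 gene symbol, 1814 several and 16010 were not listed in the platform annotation used. Where a gene had several single-symbol probe sets (1082 genes), its brightest by mean was used, which left 22180 genes. The rule matched 61 genes of the reference table (GRCm38.p6), of which 3 were not analysed here, and Gdf5 had 2 probe sets. limma 3.58.1 in R 4.3.3 fitted group and set with empirical Bayes. The number of arrays limits the precision. P-values weigh a difference between groups against the spread of these samples within groups, after the set term.

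Genes given array by array were those called in either 4E-T comparison and, in each role group, those with the highest and lowest difference over IgG. The call of a gene rests on these array values, so their separation adds no support to it. Genes, gene lists, marker lists and the set term were chosen with earlier results of these data known. The numbers in the titles were checked as pairs. Deviations from the group means correlated at 0.623, 0.240 and 0.277 for the 3 numbers shared by 4E-T and input, so a replicate block was fitted and is given where it changed a call. Unequal numbers of 4E-T and input gave 0.186 to 0.269 outside the lower set, close to numbers 2 and 3. With 1 array of the lower set they gave -0.451 to -0.294. For IgG and input the correlations were -0.0230, 0.0798 and 0.318, and 4E-T and IgG share 2 numbers. Number 1 is the lower set, so the block contains the set term. In the 8 arrays the 4E-T and input pairs correlated at 0.0442 and 0.00845. The IgG and input pairs there correlated at 0.137, 0.091 and 0.247, against -0.197 to 0.0763 for unequal numbers. The alternatives were group alone, the 8 arrays, median centring, quantile normalization, trended and robust empirical Bayes, the mean of probe sets, a minimum mean of 5 and leaving out each array.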

Additional observations from a re-analysis of the deposited data

Results flagged for a closer look

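In 9 of the 58 genes the value on input 1 lay far below the other 3 input arrays, by a gap that took up more of the range of the 4 arrays than Dixon's 95% limit allows. Input 1 read 3.487 for Gdf2, 3.075 for Gdf9, 4.008 for Tgfb1, 5.008 for Acvr1 and 2.589 for Acvr1c. It read 2.753 for Smad9, 3.002 for Chrdl2, 2.611 for Fstl4 and 6.187 for Fstl5. Chance alone flags about 1 in 20 groups. All 9 were low values on input 1, the array of the lower set among the inputs, and 0 flags fell on another input array. The fit held a term for that set.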

How the results depend on the processing

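How the 2 arrays of the lower set were handled moved the counts most. With group alone, the called BMP and TGF-beta genes numbered 0 between 4E-T and IgG, 4 between 4E-T and input and 1 between IgG and input, and the calls among all genes 299, 1361 and 1206, against 2326, 4274 and 3688 with the set term. The share of higher calls among all genes was then 52.5%, 41.7% and 26.7%, against 72.1%, 54.0% and 36.9% with it. After median centring the members called were 4 in 4E-T over IgG and 11 in 4E-T over input, with 1510 and 2662 calls among all genes. After quantile normalization they were 5 (4 higher and 1 lower) and 12, and the share of higher calls among all genes was 53.2% in 4E-T over IgG and 48.3% in IgG over input. The 4 members higher in 4E-T over IgG were Gdf11, Bmpr1b, Smad7 and Nog after either step. The cause of the shifts in counts and shares was not tested. Leaving out each array in turn gave 3 to 8 members called in 4E-T over IgG, 12 to 24 in 4E-T over input and 5 to 6 in IgG over input. Over all genes it gave 930 to 2268 calls in 4E-T over IgG, lowest without 4E-T 2 (935 without 4E-T 3), and 2703 to 4679 in 4E-T over input, lowest without 4E-T 2 (2707 without 4E-T 3). Of the called members, 2 of 10, 11 of 23 and 4 of 7 kept the call in all 10 of these fits.

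With the replicate block 10, 22 and 8 members were called, of which 8, 21 and 7 were shared with the fit without it. The 8 arrays, trended and robust empirical Bayes, the mean of probe sets and the minimum mean of 5 kept every member count within 1.5 times. In no alternative run did a called member change direction. Dim genes limit the reading: 28 of the 58 had a mean under 5.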
